A study of Mus musculus with 8 samples.

Results

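Genes of Polycomb and trithorax proteins and of other chromatin regulators were followed on 8 single-colour Agilent expression arrays while bone marrow (BM) cells gave rise to hepatocytes. The group holds 47 genes, chosen by name from the subunits and enzymes of these complexes, out of 63329 gene names carried by the arrays. Lin- BM cells (arrays L3 and L4) were taken from female C57Bl6/J-Tg(UBCGFP)30Scha/J mice, 6 to 8 weeks old, which express eGFP under the ubiquitin C promoter, and were depleted of lineage-positive cells on magnetic columns. They were given by tail vein to male hemophilia A mice (B6;129S4-F8tm1Kaz/J) of the same age, which lack factor VIII and had an acetaminophen liver injury. BM-derived hepatocytes were sorted on eGFP from the hepatocyte fraction of perfused livers after 1 month (B1 and B2) or 5 months (G1 and G3). Primary hepatocytes (H2 and H4) came from perfused livers, and their strain, age and treatment are not given in the sources used here. Each array carried RNA of cells pooled from several mice. Some of the sorted donor cells were hybrids with host hepatocytes by the in situ hybridisation of the study, so the sorted groups are mixed populations.

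Polycomb proteins keep genes silent. Polycomb repressive complex 2 (PRC2) places methyl groups on lysine 27 of histone H3 through Ezh1 or Ezh2, and PRC1 reads that mark through Cbx proteins and adds ubiquitin to histone H2A through Ring1 or Rnf2. Trithorax proteins such as Kmt2a oppose this by methylating lysine 4 of histone H3, while Kdm6a and Kdm6b remove the lysine 27 mark. DNA methyltransferases, histone acetyltransferases and deacetylases, and remodellers such as the SWI/SNF complex act on the same promoters. In blood progenitors, Ezh2 and the maintenance DNA methyltransferase Dnmt1 are best known from dividing cells, whereas adult hepatocytes rarely divide.

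One slide held both Lin- BM cell arrays together with both 1-month arrays, and a second slide, of another probe design and scan day, held the primary and the 5-month arrays. The share of spots well above background ran from 47.7% to 58.6% per array, and 0 spots were saturated. It was 56.9% to 58.6% in Lin- BM cells and 47.7% to 51.5% at 1 month. A value below is the log2 signal of a gene's brightest probe minus the 75th percentile of its array, so that 0 marks the upper quartile of the probes. That percentile was a signal of 177 to 193 in Lin- BM cells and 75.5 to 89.5 at 1 month. The same value thus stands for a lower signal at 1 month, which limits dim genes there. Genes with a limma adjusted p under 0.05 whose log2 change exceeded 0.6 in either direction were called higher or lower. Every group has 2 arrays, for which the smallest two-sided p of an exact permutation test is 0.33, and the limma p-values measure only the spread between these arrays. Hepatocyte markers stood at a summed signal (in multiples of the array's 75th percentile) of 3.85 to 4.41 in Lin- BM cells and 4696 to 4734 at 1 month, and 11035 to 12969 in primary and 12098 to 13568 in 5-month hepatocytes. Blood progenitor markers stood at 860 to 965 in Lin- BM cells and at 28.8 to 30.9 at 1 month. On the second slide the blood progenitor markers stood at 43.0 to 50.9 in primary and 40.1 to 53.2 in 5-month hepatocytes. Marker levels thus set Lin- BM cells apart from the hepatocyte groups, but not primary from 5-month hepatocytes.

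The sequences behind 4 of the members are shown first, since the arrays read RNA while the complexes act on CG-rich promoters. RefSeq promoter windows of GRCm38.p6 were matched for 42 of the 47 members, and Kdm5a, Hdac1, Cbx2, Hdac3 and Kdm6b had none. The lines below give the 250 bases before the start of Ezh2 (chr6:47595031-47595280, minus strand) and Cbx6 (chr15:79834334-79834583, minus strand), which fell in every comparison with Lin- BM cells, of Suz12 (chr11:79992856-79993105, plus strand), which also fell, and of Tet1 (chr10:62887325-62887574, minus strand), which rose. Each is written 5′ to 3′ along the gene, with CG pairs in capitals.
Ezh2: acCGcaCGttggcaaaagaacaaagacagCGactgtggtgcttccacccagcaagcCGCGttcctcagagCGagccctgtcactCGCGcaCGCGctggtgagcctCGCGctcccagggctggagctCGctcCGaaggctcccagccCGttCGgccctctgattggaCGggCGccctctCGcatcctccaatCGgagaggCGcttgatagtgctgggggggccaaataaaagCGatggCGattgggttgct
Cbx6: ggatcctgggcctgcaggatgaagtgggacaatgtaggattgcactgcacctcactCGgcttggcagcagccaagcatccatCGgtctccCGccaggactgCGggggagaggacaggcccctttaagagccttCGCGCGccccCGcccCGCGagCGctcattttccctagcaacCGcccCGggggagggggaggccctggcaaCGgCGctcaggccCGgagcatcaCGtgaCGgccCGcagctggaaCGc
Suz12: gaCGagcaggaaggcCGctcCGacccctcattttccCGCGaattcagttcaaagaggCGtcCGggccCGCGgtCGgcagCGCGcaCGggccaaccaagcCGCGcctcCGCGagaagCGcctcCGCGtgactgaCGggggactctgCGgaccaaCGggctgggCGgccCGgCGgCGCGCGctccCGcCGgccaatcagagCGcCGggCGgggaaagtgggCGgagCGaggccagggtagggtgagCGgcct
Tet1: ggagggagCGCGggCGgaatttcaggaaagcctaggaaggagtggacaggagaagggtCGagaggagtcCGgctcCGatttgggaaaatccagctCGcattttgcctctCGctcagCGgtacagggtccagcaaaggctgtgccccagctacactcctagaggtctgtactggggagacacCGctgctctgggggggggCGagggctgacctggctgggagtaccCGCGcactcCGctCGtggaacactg
These windows hold 23, 20, 37 and 15 CG pairs. The median over all 32851 windows was 6 with an upper quartile of 16, and over the 55 windows of members it was 22 with a range of 1 to 51, so that 37 of the 55 reached the upper quartile. The core of the E2F motif, searched as TTCCCGC or TTGGCGC on both strands, occurred in 5.62% of all windows and in 5 of the 55 windows of members (9.1%), those of Arid1a, Smarcb1, Smarcd1, Suz12 and Uhrf1. Of the 25 members with a window that were lower at 1 month, 3 held it. These matches describe letters only.

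The first comparison asked how the chromatin regulators of the transplanted cells differ from those of the 1-month hepatocytes on the same slide. All 47 members were tested, and 28 were lower at 1 month, 3 were higher and 16 were not called. Of all 28535 genes tested on this slide, 26.5% were lower and 28.8% higher, so the share of members that were lower (59.6%) was above this background and the share that were higher (6.38%) was below it. The median log2 change of the members was -1.18 beside 0.07 for all genes, and 42 members had a negative and 5 a positive change. Without the array B2, 17 members were lower. Of the 31 calls, 15 were lost with at least 1 array left out, namely those of Eed, Suz12, Cbx2, Rnf2, Kdm6a, Kdm5b, Setd2, Ehmt1, Arid1b, Smarca4, Ino80, Hdac1, Dnmt3a, Tet2 and Tet1. In arrays of cell populations, fewer cells of a type and less RNA per cell cannot be told apart.

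**Figure D1:**
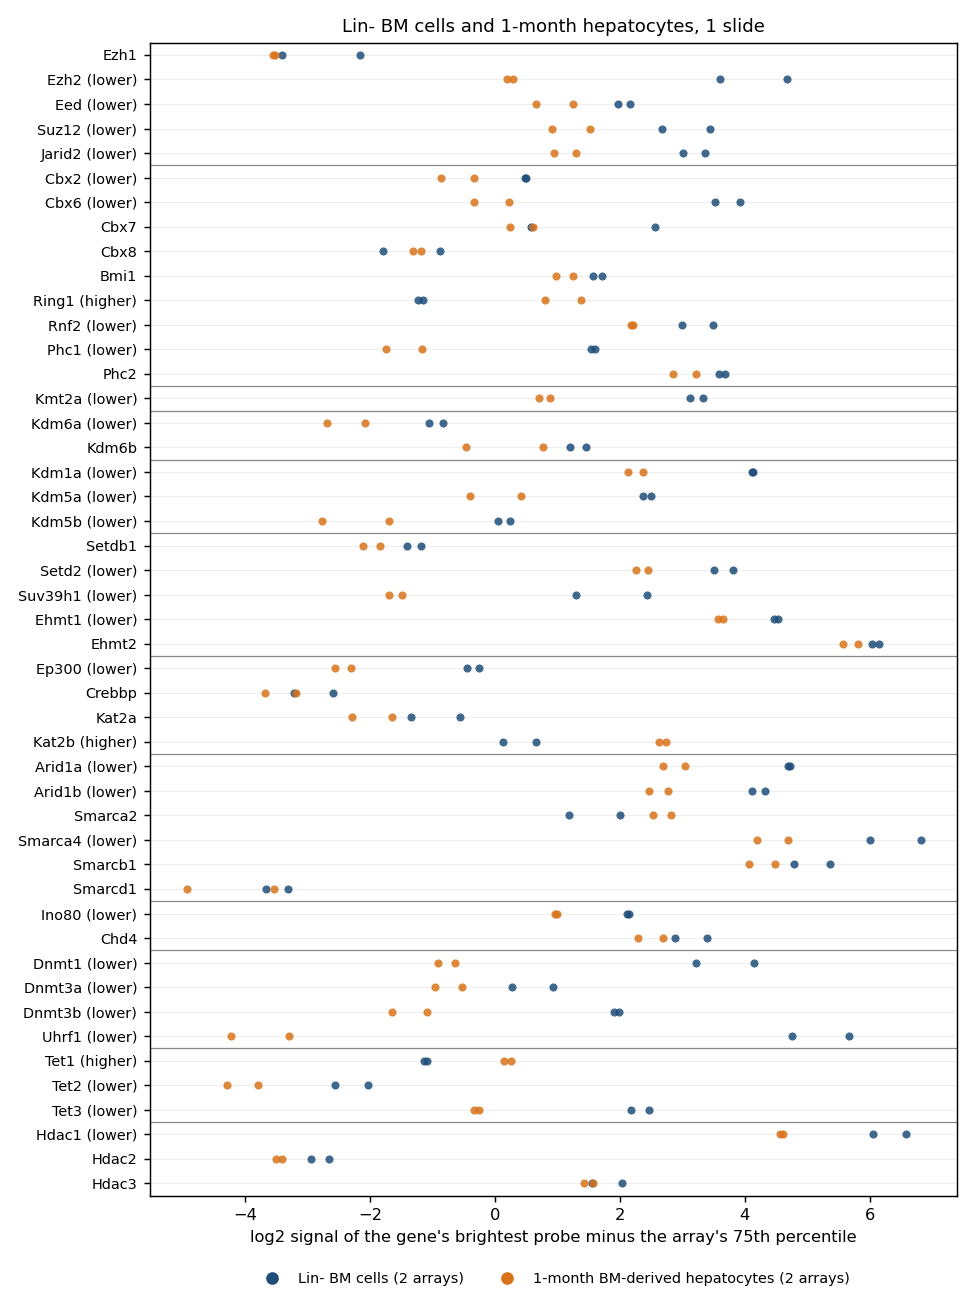
Log2 signal of the brightest probe minus the array's 75th percentile (x axis) for the 47 members (y axis, ordered by complex and separated by lines), with 1 point per array for 2 Lin- BM cell arrays (blue) and 2 arrays of 1-month hepatocytes (orange); calls stand beside the names. The 28 lower members lie left in both orange points, and Ring1, Kat2b and Tet1 are the 3 called higher by their brightest probes.

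Of the 5 PRC2 genes tested, 4 were lower and 1 was not called, with a median change of -1.83. Ezh2, the PRC2 methyltransferase of dividing cells, had values of 3.60 (L3), 4.67 (L4), 0.19 (B1) and 0.29 (B2), and fell by 3.89 on the log2 scale (SE 0.43, limma adjusted p = 0.00227), or 14.8-fold. Both 1-month arrays lay far under both Lin- arrays, and the Lin- arrays themselves were 1.07 apart. A second Ezh2 probe, placed in the coding region, read 2.94, 4.02, -0.52 and -0.49 and fell by 3.98. It is printed here because it carries the same change as the brightest probe from another stretch of the transcript.
Ezh2: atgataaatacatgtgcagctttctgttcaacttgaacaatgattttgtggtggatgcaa
Suz12, which PRC2 needs for its stability, read 2.67, 3.44, 1.53 and 0.92 and fell by 1.83 (SE 0.40, adjusted p = 0.0165). Jarid2, which brings PRC2 to its targets, read 3.37, 3.02, 1.30 and 0.95 and fell by 2.06 (SE 0.30, adjusted p = 0.00497). The groups did not overlap for either gene. Eed, which binds the methylated histone, read 2.16, 1.98, 0.66 and 1.25 and fell by 1.12 (SE 0.32, adjusted p = 0.0355). Ezh1, the second PRC2 methyltransferase, read -2.15, -3.40, -3.52 and -3.55, with neither 1-month array above background. It was not called (limma adjusted p = 0.223), and the Lin- arrays were 1.25 apart. Only 1 Ezh1 probe lies on this slide. On the second slide another Ezh1 probe read 3.64 to 4.26 in primary and 4.07 to 4.12 in 5-month hepatocytes. Whether the low reading here belongs to the probe was not tested.

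Among the 9 PRC1 genes, 4 were lower, 1 was higher and 4 were not called, with a median of -1.04. Of the 4 members that are H3K27-methyl readers of the Cbx family, 2 were lower and 2 were not called. Cbx6 read 3.52, 3.92, -0.33 and 0.23 and fell by 3.77 (SE 0.33, adjusted p = 0.00131), or 13.6-fold, the largest fall among the PRC1 genes. Cbx2 read 0.49, 0.48, -0.86 and -0.33 and fell by 1.08 (SE 0.30, adjusted p = 0.034). Cbx7 read 2.56 (L3), 0.58 (L4), 0.61 (B1) and 0.24 (B2) and was not called (change -1.15, adjusted p = 0.211). For Cbx7 only L3 was high and L4 lay with the 1-month arrays, the widest gap between Lin- arrays among the members (1.98). Cbx8 (change 0.10) was not called either. Phc1, a polyhomeotic subunit, read 1.54, 1.60, -1.17 and -1.73 and fell by 3.02 (SE 0.31, adjusted p = 0.0019). Its relative Phc2 was not called (change -0.60), nor was Bmi1, the PRC1 subunit known for blood stem cell renewal, which read 1.57, 1.71, 1.26 and 0.98 (change -0.52, adjusted p = 0.158). Of the catalytic subunits, Rnf2 read 3.49, 2.996, 2.18 and 2.22 and fell by 1.04 (SE 0.30, adjusted p = 0.0357). The other Rnf2 probe, above background on both arrays of each group, changed by -0.23. With the mean of a gene's probes the Rnf2 call was lost. Ring1 read -1.22, -1.14, 0.80 and 1.38 with its brightest probe and was called higher by 2.27 (SE 0.31, adjusted p = 0.00436). The other Ring1 probe on this slide, which is also the one shared by both designs, read -1.59, -0.95, -1.48 and -1.21 with a change of -0.08, so the rise of Ring1 belongs to 1 of its 2 probes.

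Kmt2a, the trithorax methyltransferase that keeps Hox genes on in blood progenitors, read 3.33, 3.13, 0.88 and 0.70 and fell by 2.44 (SE 0.27, adjusted p = 0.00227). Of the H3K27 demethylases, Kdm6a read -0.83, -1.06, -2.68 and -2.07 and fell by 1.43 (SE 0.33, adjusted p = 0.0186). With normexp background correction its change was -0.19 and it was not called, and the call was also lost without L3, L4 or B1. Kdm6b read 1.45 (L3), 1.21 (L4), 0.77 (B1) and -0.47 (B2) and was not called (change -1.18, SE 0.47, 95% interval -2.40 to 0.05, adjusted p = 0.0887). Its 1-month arrays lay under the Lin- arrays but differed by 1.23, the second largest gap of a member between B1 and B2. Kdm6b is itself induced in activated cells, and in B1 20 of 21 immediate early genes stood above B2, with summed signals of 1046 and 249; their part in the Kdm6b values was not tested. The Kdm6b values rest on the following 60 bases of its coding region, which the array probes.
Kdm6b: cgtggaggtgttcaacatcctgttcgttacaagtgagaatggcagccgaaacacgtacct
All 3 members that demethylate histone H3 lysine 4 were lower. Kdm1a, which removes methyl groups in the CoREST complex, read 4.13, 4.12, 2.37 and 2.14 and fell by 1.87 (SE 0.26, adjusted p = 0.00468). Kdm5a read 2.50, 2.37, 0.42 and -0.40 and fell by 2.42 (SE 0.37, adjusted p = 0.00574), and Kdm5b read 0.25, 0.05, -2.76 and -1.69 and fell by 2.38 (SE 0.43, adjusted p = 0.00948). Kmt2a, a writer of lysine 4 methylation, and these 3 erasers were therefore lower at 1 month.

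Of the 5 members that methylate lysine 9 or 36 of histone H3, 3 were lower and 2 were not called. Suv39h1, which marks constitutive heterochromatin, read 1.30, 2.44, -1.69 and -1.48 and fell by 3.46 (SE 0.45, adjusted p = 0.00363). Setd2, the enzyme of lysine 36 trimethylation, read 3.52, 3.81, 2.26 and 2.45 and fell by 1.31 (SE 0.28, adjusted p = 0.0147). Ehmt1 read 4.46, 4.53, 3.56 and 3.65 and fell by 0.89 (SE 0.25, adjusted p = 0.0359). Its partner Ehmt2 was not called (change -0.39). Setdb1, which silences retroelements, read -1.41, -1.18, -2.11 and -1.84 and was not called (change -0.68, SE 0.28, adjusted p = 0.0906), although its groups did not overlap.

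Of the 4 members that are histone acetyltransferases, 1 was lower, 1 was higher and 2 were not called. Ep300 read -0.45, -0.25, -2.56 and -2.31 and fell by 2.09 (SE 0.27, adjusted p = 0.00373). Its other probe, with neither 1-month array above background, changed by -0.63. Over the alternatives other than the t-tests the Ep300 change ran from -2.21 to -0.62, so its size depends on the processing. The Ep300 paralogue Crebbp had no 1-month array above background with its 1 probe on this slide and was not called (adjusted p = 0.258). On the second slide another Crebbp probe read 3.75 to 5.01 over the primary and 5-month arrays. Kat2b (PCAF) read 0.65, 0.13, 2.63 and 2.74 and was called higher by 2.30 (SE 0.30, adjusted p = 0.00393), whereas Kat2a (GCN5) read -1.34, -0.55, -2.29 and -1.65 and was not called (change -1.02, adjusted p = 0.0888). As with Ring1, the rise of Kat2b was not shared by its second probe, which read -0.13, -1.22, -1.95 and -1.67 with a change of -1.14. Among the 3 members that are class I histone deacetylases, Hdac1 read 6.05, 6.58, 4.61 and 4.56 and fell by 1.73 (SE 0.30, adjusted p = 0.00882). Hdac3 was not called (change -0.29), and neither was Hdac2, which had no 1-month array above background (adjusted p = 0.0979).

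SWI/SNF remodellers slide nucleosomes with Smarca4 or Smarca2 as their motor. Of the 6 genes, 3 were lower, 0 higher and 3 not called, with a median of -1.20. Smarca4 read 6.01, 6.82, 4.70 and 4.20 and fell by 1.96 (SE 0.39, adjusted p = 0.0128). Smarca2 read 1.998, 1.18, 2.83 and 2.54 and was not called (change 1.09, adjusted p = 0.0586), and its second probe had a change of -0.76. The DNA-binding subunit Arid1a read 4.70, 4.72, 2.69 and 3.04 and fell by 1.84 (SE 0.28, adjusted p = 0.00556). Arid1b read 4.33, 4.12, 2.78 and 2.46 and fell by 1.60 (SE 0.28, adjusted p = 0.00851). Both ARID subunits thus moved alike, with no overlap of the groups. Smarcb1, a core subunit, was not called (change -0.80, adjusted p = 0.101), nor was Smarcd1, which had no 1-month array above background. For Smarcd1, and for the other uncalled members at background at 1 month, the direction turned with normexp, where the change was 0.50 for Smarcd1, 0.46 for Hdac2, 0.46 for Crebbp and 0.38 for Ezh1. Of the other remodellers, Ino80, the motor that exchanges histone H2A.Z, read 2.11, 2.14, 0.96 and 0.99 and fell by 1.15 (SE 0.25, adjusted p = 0.0165). Its other 2 probes fell by 2.60 and 3.58, the latter with 1 of the 2 arrays of 1-month hepatocytes above background. The NuRD motor Chd4 was not called by its brightest probe (change -0.65, adjusted p = 0.146), while its other 2 probes changed by -2.14 and -1.98, the latter again with 1 of the 2 arrays of 1-month hepatocytes above background.

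All 4 members of DNA methylation were lower, with a median of -3.89. Uhrf1, which brings Dnmt1 to newly replicated DNA, read 4.75, 5.68, -4.23 and -3.29 and fell by 8.97 (SE 0.49, adjusted p = 0.000357), the largest change of any member. Only 1 of the 2 arrays of 1-month hepatocytes was above background for it, and for a second probe neither was, which placed that probe at least 136.7-fold lower. Dnmt1 read 3.23, 4.15, -0.91 and -0.64 and fell by 4.46 (SE 0.40, adjusted p = 0.00132), or 22.0-fold. The de novo enzyme Dnmt3b read 1.90, 1.99, -1.65 and -1.08 and fell by 3.31 (SE 0.31, adjusted p = 0.00154), or 9.95-fold. Dnmt3a, the other de novo enzyme, changed less and read 0.27, 0.93, -0.53 and -0.96, a fall by 1.34 (SE 0.36, adjusted p = 0.0286). Its other 2 probes, above background on all 4 arrays, changed by -2.60 and -0.79, so the size of its fall depends on the probe. Of the 3 Tet dioxygenases, which oxidise methylcytosine, 2 were lower and 1 was higher. Tet3 read 2.18, 2.46, -0.34 and -0.25 and fell by 2.62 (SE 0.27, adjusted p = 0.0019). Tet2, whose loss is known to expand blood stem cells, read -2.03 and -2.57 in Lin- BM cells and was not above background at 1 month (-3.80 and -4.29), at least 2.33-fold lower (adjusted p = 0.012). This bound is that of the brightest probe named Tet2 on this design. A brighter probe, named Tet2 by the other design alone, read -0.22, -0.97, -1.82 and -3.44 (change -2.03), with 1 of the 2 arrays of 1-month hepatocytes above background. The call was lost without B2, and its direction turned with normexp background correction, where the change was 0.15. Tet1 read -1.08, -1.13, 0.25 and 0.14 and was higher by 1.30 (SE 0.26, adjusted p = 0.012).

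**Figure D2:**
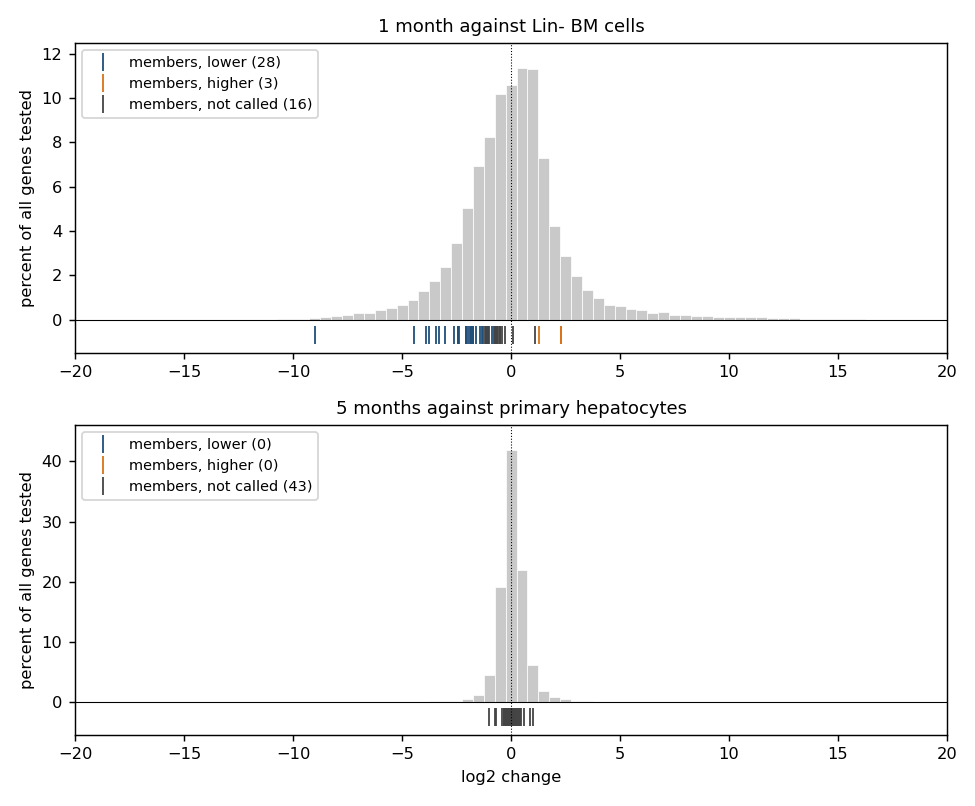
Grey bars give the percent of all genes tested (y axis) in each bin of log2 change (x axis) for 1 month against Lin- BM cells (top) and 5 months against primary hepatocytes (bottom), and ticks under the bars mark the members by call. In the top panel the 28 lower members lie left of 0 and the median of all 47 members is -1.18, while in the bottom panel all 43 lie between -1.03 and 1.02.

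Several values moved with these falls. All 24 proliferation genes were above background in Lin- BM cells and 17 to 19 of them at 1 month, 23 of the 24 were lower with a median change of -5.55, and their summed signal was 735 in one and 1505 in the other Lin- array against 37.9 to 40.7 at 1 month. L4 stood above L3 for 24 of 24, by a median of 1.48 beside -0.02 for all genes, and in the same order Suv39h1 (1.14), Ezh2 (1.07), Dnmt1 (0.92) and Uhrf1 (0.92) were higher in L4. These 4 are among the 5 members with the largest falls, while Dnmt3b, which fell by 3.31, differed by 0.09 between L3 and L4. Over all 47 members the median gap was 0.08, with 28 higher in L4. The widest gaps, those of Cbx7 (-1.98) and Ezh1 (-1.25), ran the other way. Blood progenitor genes were lower for 13 of 16 and higher for 1, while 6 of 12 Kupffer cell markers and 8 of 9 sinusoidal endothelial markers were higher, with summed signals of 12.9 to 51.8 and 80.5 to 90.2 at 1 month against 4.26 to 10.2 and 3.93 to 4.32. The part of these cell types and of proliferation in the values of the members was not tested.

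Other genes of the same complexes were listed to set the members in their pathway. Of 216 such genes 203 were tested, and 110 were lower, 10 higher and 83 not called, with a median of -1.16, beside the 26.5% lower and 28.8% higher of all genes. Partners of PRC2 were lower for 3 of 7, those of PRC1 for 8 of 17 and those of the PR-DUB deubiquitinase for 2 of 3, with 0 higher in these lists. The remaining trithorax and COMPASS genes were lower for 5 of 15, other histone methyltransferases for 15 of 24 (1 higher), demethylases for 9 of 17 (1 higher) and acetylation genes for 7 of 15. SWI/SNF partners were lower for 9 of 19 (1 higher), other remodellers for 32 of 44 and heterochromatin proteins for 8 of 10. DNA methylation partners were lower for 5 of 12, with 1 higher. Genes listed as other histone deacetylases were higher for 6 of 20 and lower for 7. The shares of this last list in both directions lie near those of all genes. So does the share of trithorax and COMPASS genes that were lower. These counts therefore do not set these lists apart. Among genes above background on all 4 arrays, the largest falls were those of the histone chaperones Asf1b (2.27, 3.98, -2.46 and -2.32) and Chaf1b (4.89, 5.39, 1.00 and -0.14) and of the nuclear lamina gene Lmnb1 (5.13, 6.06, 0.68 and 0.89). The largest rises were those of the deacetylase Hdac11 (-3.42, -3.74, 0.24 and -0.31), of Gadd45g (4.08, 4.15, 8.97 and 6.28) and of the mitochondrial deacetylase Sirt3 (5.61, 5.56, 7.34 and 7.29).

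Hox genes and the Cdkn2 locus are the textbook targets of Polycomb and trithorax, and 16 of the 41 listed were tested. Hoxa4, Hoxa5, Hoxa7, Hoxa9, Hoxa10 and Hoxc9 were lower, and Hoxa6, Hoxb5, Hoxb6, Hoxc4 and Cdkn2b were higher. These 6 lower and 5 higher of 16 lie near the 26.5% and 28.8% of all genes. Hoxa7 had the largest change, at least 98.3-fold lower, as neither 1-month array was above background. Hoxa9 was at least 16.9-fold lower. Of the hepatic factors whose promoters the study examined, 6 of 7 were higher.

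For 21 members, a second probe above background allowed the change to be read more than once, and in 18 of these every other probe had the same direction as the brightest. Some of these probes were above background in Lin- BM cells alone and could only read lower. Of the 15 members with another probe above background on all 4 arrays, every such probe had the direction of the brightest in 12. The exceptions in both counts were Ring1, Kat2b and Smarca2, all with a positive change in the brightest probe. Of the 3 members called higher, Ring1 and Kat2b were thus divided between their probes, and Tet1 had 1 probe on this slide.

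**Figure D3:**
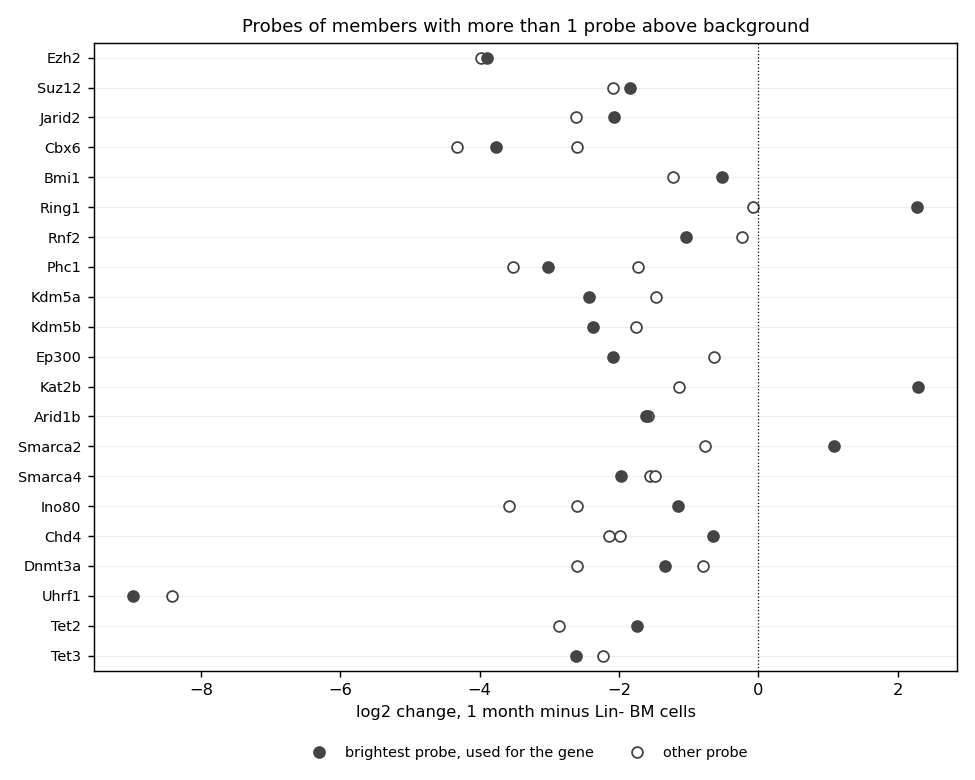
Log2 change between 1 month and Lin- BM cells (x axis) of each probe above background, for the 21 members with more than 1 such probe (y axis); filled points are the brightest probe and open points the others. Ring1, Kat2b and Smarca2 have points on both sides of 0, and the other 18 members have all of theirs on the same side.

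The second comparison asked whether chromatin regulators of 5-month hepatocytes differ from those of primary hepatocytes, again on one slide. Of the 47 members 43 were tested, and Kmt2a, Smarcd1, Uhrf1 and Hdac2 were not above background on both arrays of either group. Only 1 Kmt2a probe lies on this slide, and it differs from that of the first slide, where both 1-month arrays were above background. Whether the low Kmt2a reading belongs to the probe was not tested. By limma 0 members were called, beside 0.552% of all 19933 genes tested. At an unadjusted p under 0.05 there were 4 of the 43 members, beside 14.1% of all genes, and the t-test of the methods without adjustment gave 3, all higher at 5 months, and 0 after Benjamini-Hochberg adjustment. The median change was -0.0034 beside 0.04 for all genes, with 21 positive and 22 negative changes between -1.03 and 1.02, and 41 of the 43 were within 1 in size. The 95% interval stayed within 1 in size for 26 of 43 members, so for the other 17 a change of 2-fold is inside the interval.

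**Figure D4:**
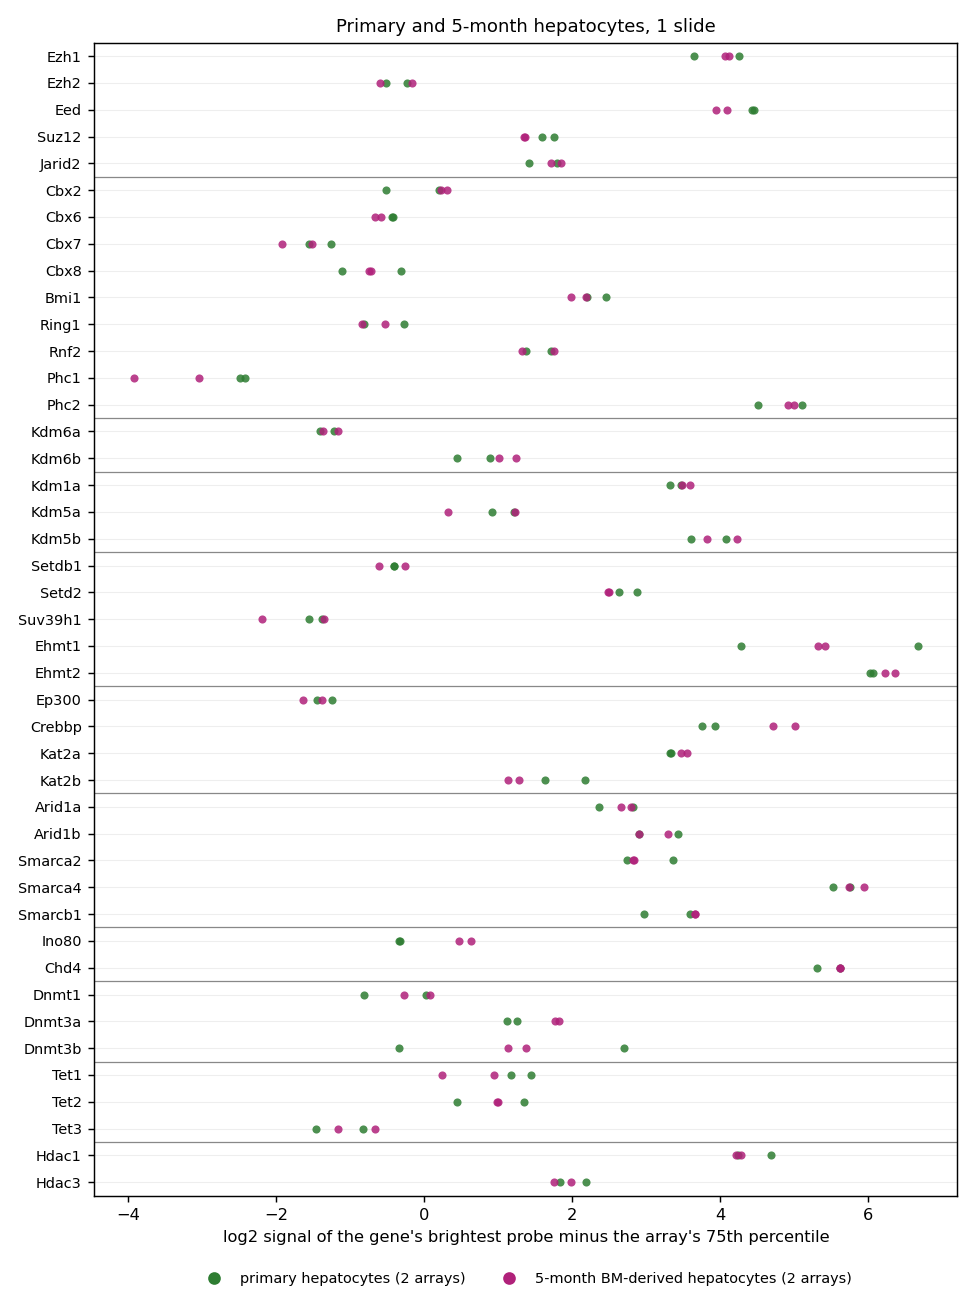
Log2 signal of the brightest probe minus the array's 75th percentile (x axis) for the 43 members tested (y axis, ordered by complex), with 1 point per array for 2 arrays of primary hepatocytes (green) and 2 of 5-month hepatocytes (magenta). The points of both groups lie together for most members, and primary arrays lie far apart for Ehmt1 and Dnmt3b.

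Ezh2 read -0.24 (H2), -0.51 (H4), -0.17 (G1) and -0.60 (G3), a change of -0.0085 (95% interval -0.71 to 0.69, limma adjusted p = 0.992). Its groups overlapped fully. Of the other PRC2 genes, Ezh1 (change 0.14), Eed (-0.42), Suz12 (-0.31) and Jarid2 (0.18) were not called. Ezh1 had 3 other probes above background, with changes from -1.84 to 0.24, and 1 of them shared the direction of the brightest. Kdm6b read 0.44, 0.89, 1.01 and 1.24, with both 5-month arrays above both primary arrays, but was not called (change 0.46, 95% interval -0.23 to 1.15, adjusted p = 0.508). In the same comparison 2 of 21 immediate early genes were higher and 0 lower, with a median of 0.51, and the medians of the Kupffer and stellate cell markers were 0.99 and 1.17 with 0 called. The 20 proliferation genes had a median of 0.82 and the 4 neutrophil markers tested 1.68, again with 0 called. Medians of the erythroid and sinusoidal endothelial markers were -0.05 and 0.13. The part of these lists in the values of Kdm6b and the other members was not tested. Kdm6a (change 0.05), Setdb1 (-0.03), Ep300 (-0.16), Arid1a (0.13) and Cbx7 (-0.31) had smaller changes and overlapping groups.

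Of the 4 members under an unadjusted p of 0.05, the acetyltransferase Crebbp read 3.75, 3.94, 4.71 and 5.01 (change 1.02, adjusted p = 0.198). Ino80 read -0.32, -0.35, 0.47 and 0.63 (change 0.88, adjusted p = 0.204). In both, the 5-month arrays lay above the primary arrays, while another probe of the same gene had changes of -1.29 and -0.20. Dnmt3a read 1.11, 1.25, 1.82 and 1.76 (change 0.61, adjusted p = 0.318). Phc1 read -2.49, -2.42, -3.93 and -3.04 (change -1.03, adjusted p = 0.334), with 1 of the 2 arrays of the 5-month group above background. Another Phc1 probe changed by -0.04. Tet1 read 1.44, 1.17, 0.24 and 0.94 (change -0.72, adjusted p = 0.419) and Kat2b read 2.17, 1.63, 1.13 and 1.28 (change -0.70, adjusted p = 0.366), both without overlap of the groups. The primary arrays disagreed for Dnmt3b (2.70 and -0.34, against 1.38 and 1.14 at 5 months) and for Ehmt1 (4.28 and 6.68, against 5.42 and 5.33). Without H2, Dnmt3b was called higher at 5 months with a change of 1.60, and without H4 its change was -1.44 and it was not called (limma adjusted p = 0.0556). Of 16 members with a second probe above background on this slide, every other probe shared the direction of the brightest in 6 and not in 10. Other chromatin genes were called for 0 of 203 by limma, with 22 at an unadjusted p under 0.05 and a median of -0.01.

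The remaining comparisons ran across slides and used probes of identical sequence on both designs, which covered 24 of the 47 members. Slide, design and scan day cannot be told apart from group here, and the values are on another zero point, since the 75th percentile was taken over the 13991 shared probes. Primary hepatocytes had 16 members lower and 2 higher than Lin- BM cells, beside 38.1% of 9234 genes lower and 29.3% higher, with a median of -1.41 beside -0.29 for all genes. At 5 months 15 were lower and 1 was higher, beside 37.7% and 29.3% of all genes, with a median of -1.38 beside -0.30. The comparisons with Lin- BM cells share the arrays L3 and L4, so their likeness is in part built in. Of the 24 members, 17 were lower at 1 month within the slide, 16 in primary hepatocytes and 15 at 5 months. The shared probe is the one used within the slide for 19 of them, and another one for Ino80, Phc1, Ring1, Tet2 and Tet3. Markers moved with these calls. In primary hepatocytes 14 of 14 proliferation genes with a shared probe were lower than in Lin- BM cells (median -6.65), 6 of 7 blood progenitor genes were lower and 1 was higher, and 6 of 6 sinusoidal endothelial and 6 of 9 Kupffer cell markers were higher. At 5 months 14 of 14 proliferation genes (median -5.88) and 5 of 7 blood progenitor genes were lower and 1 of the latter higher, and 6 of 6 sinusoidal endothelial and 7 of 9 Kupffer cell markers were higher. Of 7 housekeeping genes with a shared probe, 4 were lower and 2 higher in primary hepatocytes than in Lin- BM cells (median -0.95). The same counts held at 5 months (median -1.08). The part of these lists in the values of the members was not tested.

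**Figure D5:**
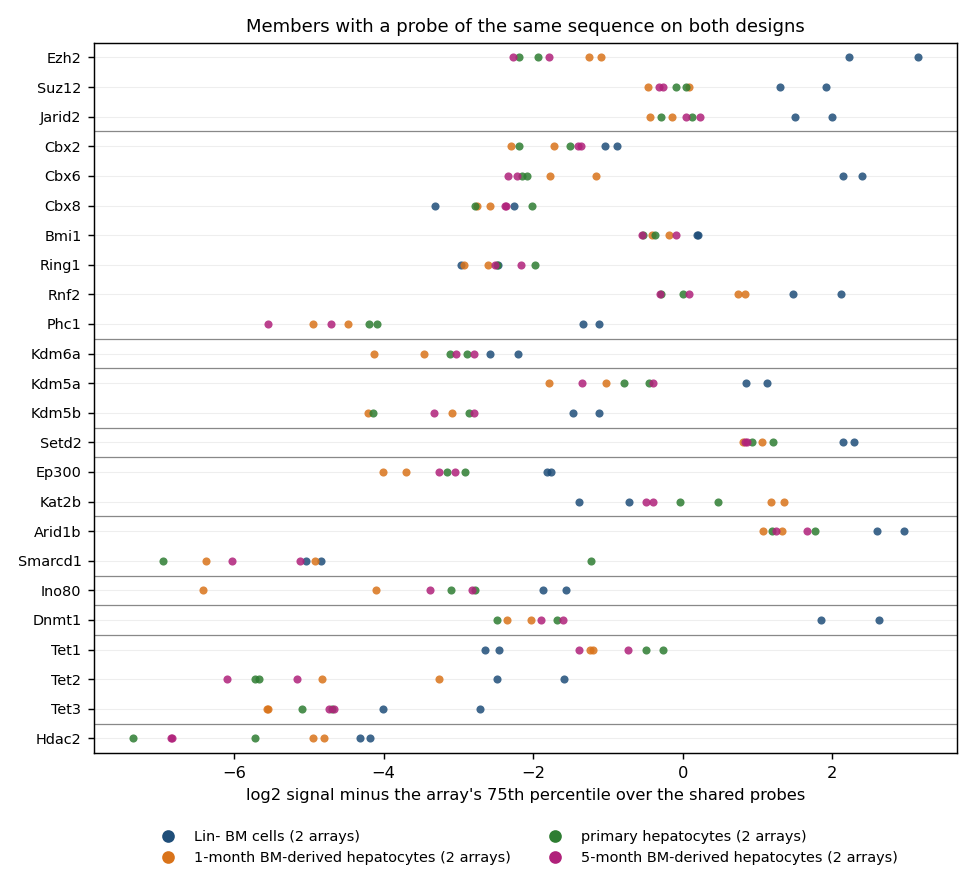
Log2 signal minus the array's 75th percentile over the shared probes (x axis) for the 24 members with a probe of the same sequence on both designs (y axis, ordered by complex), with 1 point per array for 4 groups of 2 arrays. For Ezh2, Cbx6 and Dnmt1 the 2 Lin- BM cell arrays lie between 1.85 and 3.15 and the 6 hepatocyte arrays between -2.49 and -1.10.

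On this scale Ezh2 read 2.23 and 3.15 in Lin- BM cells, -1.25 and -1.10 at 1 month, -1.94 and -2.19 in primary and -1.79 and -2.27 in 5-month hepatocytes. Both Lin- arrays lay far above all 6 hepatocyte arrays. In primary hepatocytes Ezh2 was lower by limma (change -4.75, adjusted p = 5.22e-05), and at 5 months too (change -4.72). Cbx6 read 2.15 and 2.40 in Lin- BM cells, -1.77 and -1.16 at 1 month, -2.15 and -2.09 in primary and -2.21 and -2.34 in 5-month hepatocytes. Dnmt1 read 1.85 and 2.63, then -2.35 and -2.03, then -1.68 and -2.49, then -1.90 and -1.60 in the same order of groups. For both genes every hepatocyte array was far below both Lin- arrays. The Dnmt1 values of the hepatocyte groups overlapped, while for Cbx6 both 1-month arrays lay above the other 4 hepatocyte arrays, without a call against primary hepatocytes (change 0.65). Other members lower in primary hepatocytes were Tet2 (change -3.66, with 1 of 2 primary arrays above background), Phc1 (-2.92), Hdac2 (-2.28, with 1 of 2 primary arrays above background), Kdm5b (-2.20), Rnf2 (-1.94), Jarid2 (-1.83), Suz12 (-1.63), Kdm5a (-1.61), Tet3 (-1.53), Arid1b (-1.30), Ep300 (-1.24), Setd2 (-1.15) and Cbx2 (-0.89). With normexp the calls of Hdac2 (change -0.01), Tet3 (-0.23) and Ep300 (-0.55) were lost, and that of Hdac2 was also lost with the authors' values. The call of Cbx2 was lost under 10 of the 16 alternatives other than the t-tests. The same genes except Cbx2 were lower at 5 months, with changes between -4.72 and -1.32. At that time Hdac2 was not above background, at least 2.66-fold lower, a call lost with normexp (change -0.02), as was that of Tet3 (-0.22), and Cbx2 was not called (change -0.42). Kdm6a had changes of -0.61 and -0.52 and Ino80 of -1.22 and -1.38 in primary and 5-month hepatocytes, and neither was called. Cbx8, Bmi1, Ring1 and Smarcd1 were not called in either, and for Smarcd1 the primary arrays were far apart (-1.23 in H2 and -6.95 in H4).

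Tet1 was called higher in each hepatocyte group than in Lin- BM cells, always against the same L3 and L4. It read -2.45 and -2.65 in Lin- BM cells, -1.20 and -1.25 at 1 month, -0.26 and -0.50 in primary and -1.39 and -0.73 in 5-month hepatocytes. In primary hepatocytes the change was 2.17 (adjusted p = 5.71e-04) and at 5 months 1.49 (adjusted p = 0.00322). Kat2b read -0.72 and -1.40 in Lin- BM cells, 1.18 and 1.35 at 1 month, 0.47 and -0.04 in primary and -0.50 and -0.39 in 5-month hepatocytes. By this probe Kat2b was highest at 1 month, where its other probe on that slide changed by -1.14 from Lin- BM cells. By the shared probe it was called higher in primary hepatocytes (change 1.27, adjusted p = 0.00962) but not at 5 months (change 0.61, adjusted p = 0.119). Ring1, called higher at 1 month by another probe, read -2.96 and -2.47 in Lin- BM cells and between -2.93 and -1.98 in all hepatocyte arrays with its shared probe.

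Between 1-month and primary hepatocytes, 0 of the 24 members were called by limma, beside 16.8% of all genes, with 10 at an unadjusted p under 0.05 beside 32.4% of all genes, and 3 by the t-test of the methods without adjustment and 0 with it. Between 5 months and 1 month 2 members were called lower, beside 17.2% of all genes in either direction. These were Kat2b (change -1.71, adjusted p = 0.0162) and Hdac2 (adjusted p = 0.0404), which was not above background in either group and has no fold. Neither call held under every alternative other than the t-tests. Other scalings across slides called up to 4 members in each of these comparisons.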

How the data were processed

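RNA of 4 cell groups was hybridised to single-colour Agilent arrays of 2 designs (61307 and 55681 probes). The deposited scanner tables, made with Agilent Feature Extraction per the submitters' processing notes, hold background-subtracted intensities per spot; scan settings and further corrections are not given in the sources used here. The log2 values that the authors deposited from GeneSpring equal the log2 intensities shifted by the 75th percentile of each array (99.8% or more of the probes of every array lie within 0.02 of that), and were used as an alternative.

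Here log2 intensities were reduced by each array's 75th percentile and outlier spots (6 to 152 per array) were left out. A probe was kept if both arrays of any group compared were well above background, each gene was read from its brightest probe, and limma 3.58.1 (R 4.3.3, with version 1.17.8 of data.table) compared the groups, its p-values being adjusted by Benjamini-Hochberg over all genes of a fit. Within a slide 28535 and 19933 genes were tested, and across slides 9234, with all 4 groups sharing 1 estimate of the spread. A called gene, or a probe of one, not above background in a group is given as at least N-fold changed, from the bright group's mean. Each dim array enters with the gene's own signal or the array's lowest signal well above background, whichever is higher. Such a bound can therefore equal the measured change. Probes were named through RefSeq accessions or symbols, and otherwise as on the array. Designed 60-base probes came from the scanner tables and promoters from RefSeq. Tables and plots used Python 3.11.15, pandas 2.3.3, numpy 2.4.6 and matplotlib 3.10.9, and the steps were tested on simulated data. The number of arrays limits the precision.

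The members, gene lists, tests and alternatives were chosen with earlier results of these data known. Values are given array by array for members that were called and for Ezh2, Kdm6b, Kdm6a, Kmt2a, Ep300, Setdb1, Ino80, Arid1a and Cbx7, which the study names; of the other chromatin genes, the 3 largest rises and falls among called genes above background on all arrays are named.

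Results were recomputed with normexp background correction at an offset of 50, quantile normalization, the percentile over other probes, no filter and a stricter filter on dim probes, the mean of a gene's probes, the authors' values, the t-test of the methods, shared probes and each array left out.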

Additional observations from a re-analysis of the deposited data

How the results depend on the processing

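No paired analysis was possible because the groups compared share fewer than 2 replicate numbers. Slide as a term could not be estimated, since each group lies on 1 slide. Of the 31 members called at 1 month, 14 kept their call under every alternative other than the t-tests and 29 kept their sign. The exceptions in sign were Tet2 with normexp background correction (0.15) and Ring1 with its second probe, which is the shared one (-0.051 on the shared scale). The median over all genes at 1 month moved from 0.07 to 0.36 with normexp and to 0.75 with no filter, and the share of higher calls among all genes from 52.1% to 62.8% and 71.9%, while that of the members stayed at -1.08 and -1.18. The 28 lower members became 8 with the adjusted t-test, 17 of 24 with shared probes, and 17 to 22 with an array left out, the fewest without B2. The 3 higher became 1 with the adjusted t-test and 2 to 4 with an array left out.

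For 5 months against primary hepatocytes the 0 higher members became 3 with the unadjusted t-test and 0 to 1 with an array left out (1 without H2), and the 0 lower 0 to 1 (Smarcd1 without H4). In primary hepatocytes against Lin- BM cells, the 16 lower became 4 with the adjusted t-test, and the 2 higher became 1 with either t-test and 1 to 3 with an array left out. Smarcd1, not called there, turned from 0.85 to -2.01 without H2 and 3.71 without H4, called in both. At 5 months against Lin- BM cells the 15 lower became 7 and the 1 higher 0 with the adjusted t-test, and the 1 higher became 2 with the percentile over each design or the authors' values and 1 to 2 with an array left out. Of the calls against Lin- BM cells, 11 of 18 in primary hepatocytes and 12 of 16 at 5 months held under every alternative but the t-tests. For 1 month against primary hepatocytes the 0 calls became 3 with normexp, 2 with quantile normalization, 1 with the percentile over detected probes, 4 with that over each design, 4 without a filter, 1 with the strict filter, 4 with the authors' values, 3 with the unadjusted t-test and 0 to 2 with an array left out. For 5 months against 1 month the 2 calls became 4 with normexp, quantile normalization, the authors' values or the unadjusted t-test, 1 with the strict filter, 0 with the adjusted t-test and 0 to 2 with an array left out. The cause of these differences was not tested, and dim members such as Tet2, Hdac2 and Smarcd1 are limited by their signal over background.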
